A study of Homo sapiens with 9 samples.

Results

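The transcription factor AP-1 was followed through 10 of its genes, FOS, FOSB, FOSL1, FOSL2, JUN, JUNB, JUND, ATF3, BATF3 and MAFF, in cultures of SK-N-AS, an established neuroblastoma line. The genes were taken by name, with every probe set that an annotation table gives to them, which came to 23 of the 54675 probe sets on the array and to 10 of 19775 named genes. The 9 Affymetrix arrays form 3 series of 0, 24 and 48 h: cells with RE-EX1, a construct for full-length NRSF, cells with HZ4, a construct for a truncated variant, and untreated cells. NRSF, which the gene REST encodes, represses neuronal genes outside neurons. Each of the 9 groups holds 1 array, and all share 1 cell line and 1 serum-containing medium. The study's description speaks of repeated cultures and batches, but whether an array pools them is not stated. The labels name neither the promoter of the constructs, nor their delivery, nor a mock treatment of the untreated cells.

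AP-1 is a dimer of proteins with a basic DNA-binding region and a leucine zipper (bZIP). FOS proteins pair with JUN proteins, JUN proteins also pair with each other, and ATF3, BATF3 and MAFF, a small MAF protein without an activation domain, are zipper proteins that pair within this wider family. FOS, FOSB, JUN, JUNB and ATF3 are immediate early genes: growth factors, stress and calcium start their transcription through factors that are already in the cell, and their messages are short-lived. The 0 to 24 h interval asks which subunits were higher a day later, and the 24 to 48 h interval asks which of them had gone back.

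Promoter sequence is shown for 5 genes: FOS, JUN, ATF3 and MAFF, which had the largest measured changes at 24 h, and FOSB, which was above the floor at that time alone. RefSeq (GRCh38.p14) promoter windows were matched for 8 of the 10 genes, with a second start for ATF3 and for MAFF, and not for FOSL1 and BATF3. The lines give the 130 bases before the first listed start, 5′ to 3′ on the gene's strand. Capitals mark matches, on either strand, to TGACG, TGACGTCA, TGACATCA or TATAAA.
FOS (chr14:75278698-75278827, plus strand): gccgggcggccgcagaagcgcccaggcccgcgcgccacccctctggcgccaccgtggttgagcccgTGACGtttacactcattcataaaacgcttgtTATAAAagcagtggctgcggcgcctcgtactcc
FOSB (chr19:45467866-45467995, plus strand): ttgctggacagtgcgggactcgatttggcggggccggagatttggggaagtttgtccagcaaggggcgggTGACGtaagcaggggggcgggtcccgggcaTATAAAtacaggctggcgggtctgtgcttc
JUN (chr1:58784048-58784177, minus strand): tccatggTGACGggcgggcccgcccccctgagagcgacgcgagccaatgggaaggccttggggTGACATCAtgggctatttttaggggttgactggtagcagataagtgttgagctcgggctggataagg
ATF3 (chr1:212565277-212565406, plus strand): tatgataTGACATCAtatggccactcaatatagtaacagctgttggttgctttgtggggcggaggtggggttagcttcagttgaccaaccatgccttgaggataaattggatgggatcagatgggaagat
MAFF (chr22:38201864-38201993, plus strand): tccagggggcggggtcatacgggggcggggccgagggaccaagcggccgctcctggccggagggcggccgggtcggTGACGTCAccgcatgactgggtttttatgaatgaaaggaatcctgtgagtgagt
FOS and FOSB share a layout, with TGACG from 64 and from 60 bases before the start and TATAAA from 33 and from 30 bases before it. In JUN the 8-base TGACATCA lies 67 to 60 bases before the start, and in ATF3 the same 8 bases lie 123 to 116 before it. MAFF has TGACGTCA, the cyclic AMP response element, 54 to 47 bases before its start. Over the 250 bases before the start, TGACG was in 7 of 10 member windows and in 21.2% of 35116 windows of all genes, and TGACG is part of TGACGTCA, so both are counted in the same place. TGACATCA was in 2 of 10 and in 2.37%, TGACGTCA in 2 of 10 and in 1.65%, and TATAAA in 4 of 10 and in 10.7%. TGANTCA, searched with any base at N, is a loose form of an element that FOS and JUN dimers bind. It was in 0 of 10 and in 6.57%, and the CArG box of serum response factor was in 0 of 10 and in 1.16%. These are matches of letters in a short window.

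On all 9 arrays the 8 markers of mesenchymal neuroblastoma cells were above the floor, a signal of 8.266 below which values were not ordered, and 6 of 8 sympathoadrenal markers were. GATA3 was at 1346 to 1912, while TH and DBH, the enzymes that define noradrenergic cells, were at or below the floor on 2 and 5 arrays. The summed signal of the mesenchymal markers was 27562 to 31989 at 0 h, 20754 to 23977 at 24 h and 24380 to 29029 at 48 h, and that of 4 blood markers was 131 to 143, 150 to 216 and 207 to 246. PTPRC, a marker of blood cells, was the 1 gene of that list that rose, at 48 h (4.5% of all genes did). In the mesenchymal list 4 of 8 fell (8.2% of all genes) and 1 rose (8.04%) at 24 h. Sums of epithelial, endothelial and of Schwann and melanocyte markers overlapped between times, the last being 117 to 158 at 0 h and 156 to 276 at 24 h. Their part in the results was not tested, and in bulk RNA fewer cells of a type and less RNA per cell cannot be told apart. REST read 171.1, 268.3 and 273.5 at 0, 24 and 48 h with full-length NRSF. With truncated NRSF it read 162, 323.1 and 341.6, and in untreated cells 177.2, 444.7 and 260.3. It was thus higher at 24 h than at 0 h in each series, and fell back from 24 to 48 h only in untreated cells. Whether its probe set reads the constructs is not given. The truncated 24 h array stands apart with a median correlation of 0.909 to the other arrays, where the other 8 had 0.922 to 0.931. The 3′ to 5′ signal ratio of ACTB, a sign of RNA integrity, was 2.251 to 4.187 at 0 h, 2.451 to 3.629 at 24 h and 2.489 to 3.471 at 48 h.

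At 24 h 6 of the 9 genes that could be tested rose (8.04% of all 13804 genes did): FOS, FOSL1, FOSL2, JUN, ATF3 and MAFF. None fell (8.2% of all genes did). JUNB, JUND and BATF3 did not pass, and FOSB was too dim for the test. At 48 h over 0 h only ATF3 remained above its start by the test (1 of 9 genes, against 4.5% of all genes), and 4 of 9 fell between 24 and 48 h (1.78% of all genes): FOS, FOSL1, JUN and ATF3. None fell at 48 h over 0 h (3.88% of all genes) or rose from 24 to 48 h (1.72%). The median change of the 9 was 1.56 log2 at 24 h and 0.18 at 48 h, where all genes had medians of −0.03 and −0.01. The tests were made with limma over all 13804 genes, with series as a block, and a call is a Benjamini-Hochberg adjusted p under 0.05. Each of the 9 genes was above the filter signal of 18.32 on all 9 arrays. Since each time has 1 array in each of 3 series (n = 3), the error measures how the series differ in their time course. Those differences may be technical or belong to the constructs. limma also draws the error of each gene toward that of genes with a like signal.

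**Figure D1:**
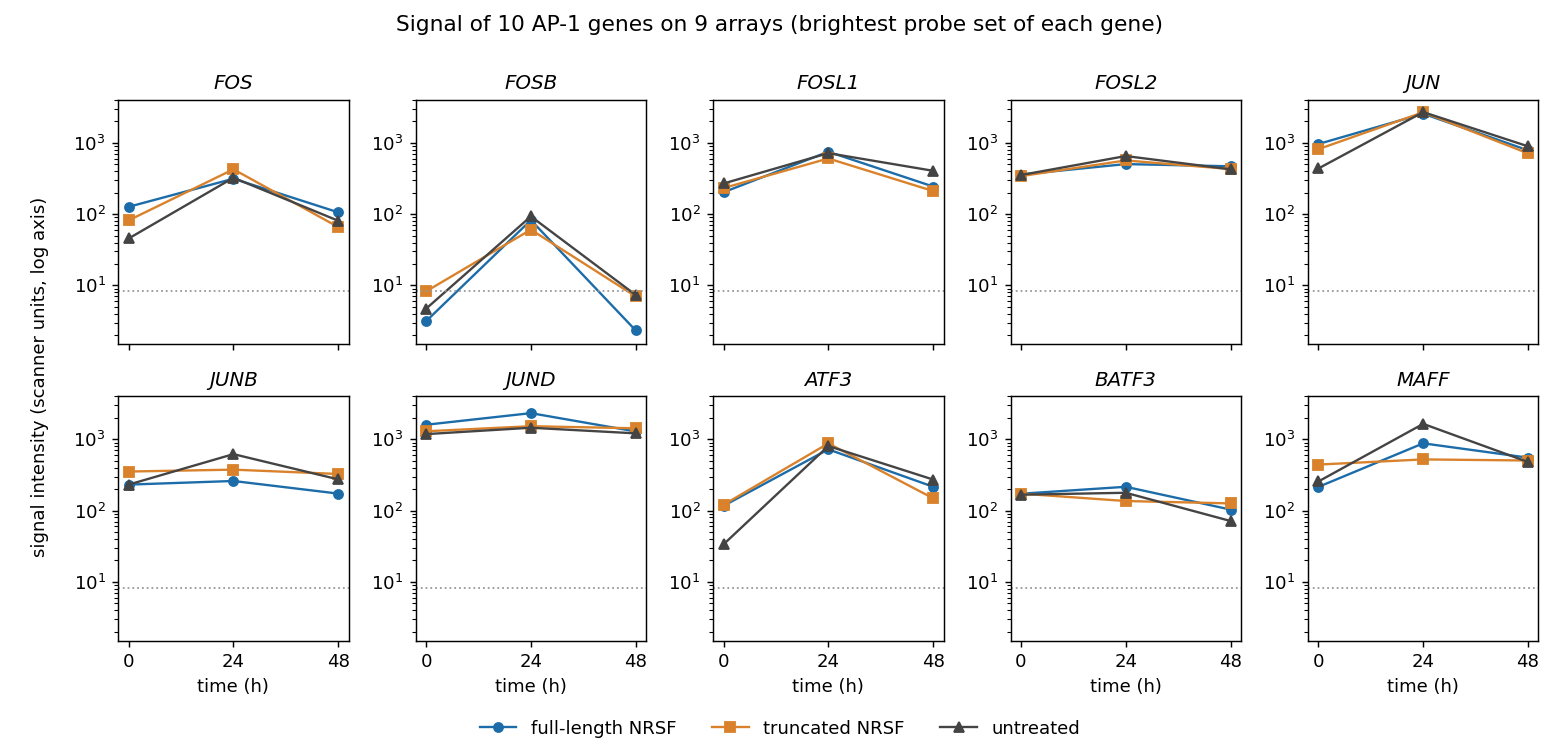
Signal intensity (log axis) of the brightest probe set of each AP-1 gene against time in hours, with 1 point per array and 1 line per series; the dotted line is the floor of 8.266. Each gene but BATF3 is highest at 24 h in all 3 series, and BATF3 is lowest at 48 h in each.

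FOS, whose product is the partner of JUN in the classic AP-1 dimer, lies on chromosome 14 (75278828 to 75282230, GRCh38.p14) and has 1 probe set. With full-length NRSF it read 126.8 at 0 h, 314.7 at 24 h and 106.2 at 48 h. With truncated NRSF these signals were 81.9, 426.4 and 65.98. In untreated cells they were 45.59, 324.4 and 80.91. Every 24 h array was above every 0 h and every 48 h array, and the 0 and 48 h ranges overlapped. FOS rose by 2.17 ± 0.31 log2 at 24 h (standard error; adjusted p = 0.0002), a 4.51-fold change, and fell by 2.09 ± 0.31 from 24 to 48 h (adjusted p = 0.0012), which left it at 0.09 ± 0.31 over 0 h (adjusted p = 0.91).

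FOSB, on chromosome 19 (45467996 to 45475179), encodes a FOS protein that also exists as a shorter, stable splice form, which its 1 probe set is not known to separate. At 24 h it read 82.51 with full-length NRSF, 60.68 with truncated NRSF and 93.15 in untreated cells. All 6 arrays at 0 and 48 h were at or below the floor, at 2.341 to 8.258. FOSB was thus seen above the floor at 24 h and at no other time, in every series. Its mean signal was too low for the filter, so it is not among the 9 genes tested, and no fold change or test is given for it, since the dim arrays hold no measured level.

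FOSL1, which encodes FRA1, a FOS protein without the activation domain of FOS that is common in mesenchymal and invasive cells, lies on chromosome 11 (65892049 to 65900545). With full-length NRSF it read 203.2, 752 and 244.5 at the 3 times. With truncated NRSF it read 232.3, 604.9 and 211.3. In untreated cells they were 269.6, 718.2 and 406.3. The 24 h arrays stood above all others, and the untreated 48 h array was the highest of its hour. FOSL1 rose by 1.56 ± 0.20 (adjusted p = 5.8e-05), fell by 1.32 ± 0.20 from 24 to 48 h (adjusted p = 0.0011) and ended 0.24 ± 0.20 over 0 h (adjusted p = 0.52). The second change was called no longer without the full-length series (−1.17, adjusted p = 0.067).

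FOSL2, which encodes FRA2, the other FOS protein without that domain, lies on chromosome 2 (28392858 to 28417317) and has 5 probe sets. On the brightest, full-length NRSF gave 359.8, 504.7 and 469.9. Truncated NRSF gave 342, 567.8 and 429.6. In untreated cells they were 354.4, 654.4 and 426.1. All 3 arrays at 48 h lay between those of 0 and those of 24 h, with no overlap. FOSL2 rose by 0.70 ± 0.17 at 24 h (adjusted p = 0.0079), a 1.63-fold change, and stood at 0.33 ± 0.17 at 48 h (adjusted p = 0.25) and −0.37 ± 0.17 from 24 to 48 h (adjusted p = 0.24), so neither its return nor its persistence passed. The next probe set, fitted among 26491 probe sets, gave a larger shift, with 1.45 ± 0.20 at 24 h (adjusted p = 1e-04) and 0.76 ± 0.20 at 48 h (adjusted p = 0.034). The other 3 FOSL2 probe sets, which are dimmer, were not called at 24 h, with 0.88 (adjusted p = 0.086), 0.18 (adjusted p = 0.87) and 0.82 (adjusted p = 0.43). Without the untreated series the FOSL2 call at 24 h ended (0.61, adjusted p = 0.086).

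JUN, which encodes the strongest activator among the JUN proteins, lies on chromosome 1 (58780791 to 58784047). Its 4 probe sets each rose at 24 h and fell by 48 h in every series. At 48 h over 0 h they differed in which series was highest. The brightest may cross-hybridize by its identifier, so its level is uncertain. It read 965.3, 2571 and 787.2 with full-length NRSF. With truncated NRSF it read 817.7, 2695 and 713.3. In untreated cells they were 437.5, 2707 and 896.2. The 24 h arrays lay within 1.05-fold, and the lowest array was the untreated one at 0 h. JUN rose by 1.92 ± 0.21 (adjusted p = 1.2e-05), a 3.79-fold change, and fell by 1.74 ± 0.21 from 24 to 48 h (adjusted p = 0.00019), to 0.18 ± 0.21 over 0 h (adjusted p = 0.66). Fitted one by one, the other 3 probe sets rose at 24 h, by 1.77 ± 0.20, 2.11 ± 0.24 and 1.5 ± 0.25, and fell from 24 to 48 h, with changes of −1.64, −2.13 and −1.21 (highest adjusted p = 0.012).

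JUNB and JUND encode JUN proteins that activate less than JUN and can oppose it, JUND being present in most resting cells. JUNB (chromosome 19, 12791486 to 12793315) had signals of 231.3, 260.1 and 173 with full-length NRSF. With truncated NRSF it had 353, 375.2 and 326.2. In untreated cells it had 231.4, 619.5 and 274.1. The untreated array at 24 h was the only one clearly above the rest, with a change of 1.42 log2, against 0.17 and 0.09 in the construct series. Across series JUNB stood at 0.56 ± 0.24 at 24 h (adjusted p = 0.13). JUND (chromosome 19, 18279694 to 18281622) had signals of 1182 to 1601 at 0 h, 1453 to 2329 at 24 h and 1212 to 1428 at 48 h on its brightest probe set, and stood at 0.36 ± 0.15 (adjusted p = 0.13). The other 3 JUND probe sets were dim, at 1.639 to 99.04, and correlated with it at −0.05 to 0.34 over 9 arrays.

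ATF3, a stress-induced factor that forms repressive homodimers and mixed dimers with JUN proteins, lies on chromosome 1 (212565407 to 212620777). Its brightest probe set had signals of 116.5, 722.7 and 216 with full-length NRSF. With truncated NRSF it had 120.5, 876.9 and 148.9. In untreated cells it had 33.59, 804.8 and 272.6. The 3 times did not overlap, 24 h being highest and 48 h above 0 h. ATF3 rose by 3.36 ± 0.36 at 24 h (adjusted p = 1.2e-05), a 10.3-fold change and the 5th highest of 13804 genes, and fell by 1.95 ± 0.36 from 24 to 48 h (adjusted p = 0.0061). At 48 h it was 1.41 ± 0.36 over 0 h (adjusted p = 0.024). That last call rested on the untreated series, where the change was 3.02, against 0.89 and 0.31 in the construct series: without the untreated 0 h array it was 0.70 (adjusted p = 0.12), and without that series 0.60 (adjusted p = 0.26). Without the full-length series the call at 48 h (1.66, adjusted p = 0.12) and that from 24 to 48 h (−2.06, adjusted p = 0.097) ended too. The second ATF3 probe set, at 3.143 to 123, also rose at 24 h (2.27 ± 0.65, adjusted p = 0.027). It was not called at 48 h over 0 h (1.05 ± 0.65, adjusted p = 0.40) or from 24 to 48 h (−1.22 ± 0.65, adjusted p = 0.37). With full-length NRSF it read 43.54 at 24 h and 68.37 at 48 h. The third probe set was too dim for the filter.

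BATF3, a zipper protein known from dendritic cells, lies on chromosome 1 (212686417 to 212699840). Its 3 arrays at 0 h read 167 to 172.9, at 24 h 136.1 to 215.6 and at 48 h 71.39 to 126.1. All 48 h arrays were below all others, but the change at 48 h of −0.81 ± 0.28 did not pass (adjusted p = 0.083), and at 24 h it was 0.02 ± 0.28. MAFF (chromosome 22, 38201994 to 38216511) had signals of 214.8, 878 and 552.6 with full-length NRSF. With truncated NRSF it had 442, 522.3 and 504.1. In untreated cells it had 256.2, 1647 and 480.7. The truncated series was flat, and the other 2 series peaked at 24 h. MAFF rose by 1.65 ± 0.31 at 24 h (adjusted p = 0.0017) and stood at 0.82 ± 0.31 at 48 h (adjusted p = 0.12) and −0.83 ± 0.31 from 24 to 48 h (adjusted p = 0.16). Without the truncated 24 h array, the one that stands apart, both of these passed (0.82, adjusted p = 0.025; −1.38, adjusted p = 0.011), as they did without the whole truncated series (1.14 and −1.22), while the call at 24 h ended without the full-length series (1.46, adjusted p = 0.071). The second MAFF probe set was not called at 24 h (1.54 ± 0.52, adjusted p = 0.057), with changes of 3.92 in the full-length, −0.15 in the truncated and 0.86 in the untreated series.

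**Figure D2:**
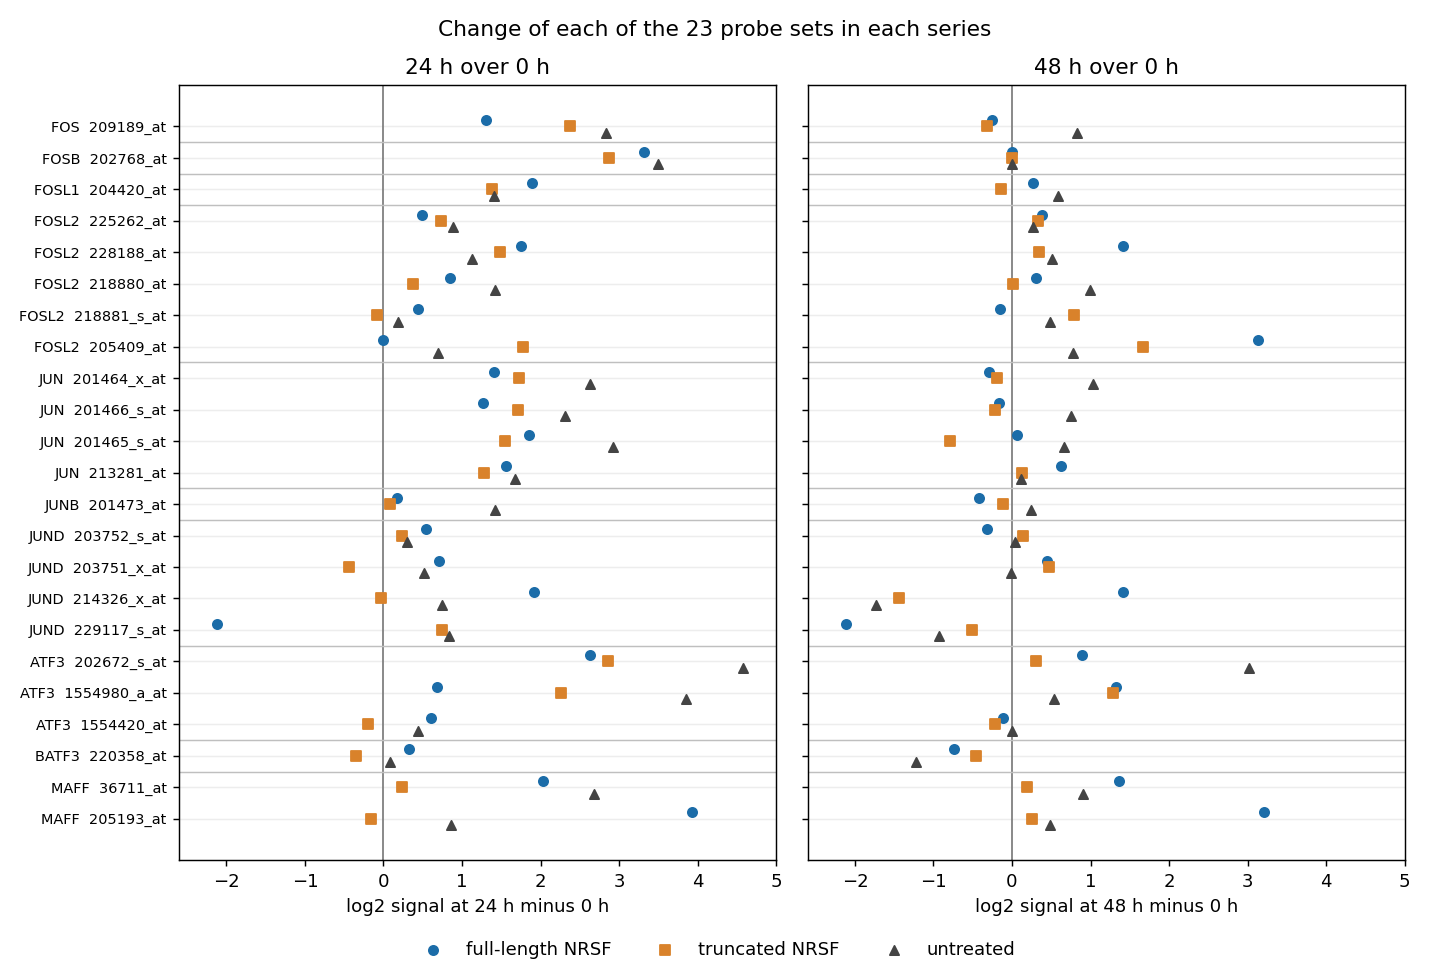
Log2 change of each of the 23 AP-1 probe sets from the 0 h array of the same series, at 24 h (left) and 48 h (right), with 1 marker per series and the brightest probe set of each gene first. The 4 JUN probe sets lie between 1.27 and 2.92 at 24 h in every series, and those of JUND scatter around 0.

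Taken by probe set, 15 of 23 were higher at 24 h than at 0 h in 3 of 3 series, against 15.6% of 41091 probe sets of single genes, and 17 of 23 were lower at 48 h than at 24 h in 3 of 3 series, against 14.3%. For 13 of 23 all 24 h arrays were above all 0 h arrays (10.1% of probe sets), for 12 they were above all 48 h arrays (7.73%), and for 6 all 48 h arrays were above all 0 h arrays (8.82%). Probe sets of 1 gene share its RNA and are not independent. With each probe set fitted by limma, 11 of 20 kept rose at 24 h (6.62% of 26491), 0 fell (6.47%), 7 of 20 fell from 24 to 48 h (1.46%), 0 rose then (1.17%), and at 48 h 2 of 20 were above 0 h (3.26%), ATF3 and FOSL2, and 0 below it (2.96%). Within single series, the full-length one had 5 of 9 members 2-fold or more above 0 h at 24 h (9.68% of genes), the truncated one 4 (15.3%) and the untreated one 6 (8.81%). At 48 h these were 1 (8%), 0 (9.67%) and 2 (8.45%).

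Subunits were then sorted by the 3 calls of the brightest probe set of each gene. A gene was named transient when it rose at 24 h, fell from 24 to 48 h and was not above 0 h at 48 h, partly kept when it also stayed above 0 h, and lasting when it rose at both times without falling between them. FOS, FOSL1 and JUN were transient, which 1.12% of all genes were. ATF3 was partly kept (0.268% of all genes). No member was lasting, against 372 of 13804 genes (2.69%). FOSL2 and MAFF rose at 24 h and fitted none of the 3 classes, and JUNB, JUND and BATF3 did not rise. The FOSL2 class depends on the probe set. Its second brightest probe set, in its own fit, rose at both times and met the rule for lasting. That probe set stood at 0.76 at 48 h over 0 h (adjusted p = 0.034) and −0.70 from 24 to 48 h (adjusted p = 0.079). Of the 6 members that rose at 24 h 4 fell again by 48 h, against 17.2% of all 1110 genes that rose. FOS and JUN were left at 0.09 and 0.18 log2 over 0 h after rises of 2.17 and 1.92, while MAFF and FOSL2 were left at 0.82 and 0.33 after 1.65 and 0.70. The difference between those pairs was not tested, since the genes were sorted on these values. The means of the transient genes at 48 h over 0 h hide a split between series. In untreated cells FOS stood at 0.83, JUN at 1.03 and FOSL1 at 0.59. With full-length NRSF they were at −0.26, −0.29 and 0.27, and with truncated NRSF at −0.31, −0.20 and −0.14. Each of these values rests on 1 array per time. For FOS and JUN the untreated array was the lowest at 0 h, at 45.59 and 437.5. At 48 h untreated FOS read 80.91, between the construct arrays at 65.98 and 106.2, and the JUN arrays lay within 1.26-fold. FOSL1 was lower in the construct series at 48 h, at −0.73 (full-length) and −0.94 (truncated) log2 against untreated. The part of the untreated 0 h array in this split was not tested. With no filter on dim genes, or without the variance trend, 0 members and 0 of all genes fell from 24 to 48 h in limma, so the classes need both settings. With no filter 5 of the same 9 genes rose at 24 h (3.49% of genes did, and 2.9% fell), MAFF not among them (adjusted p = 0.091), and 0 members were called at 48 h over 0 h, where 1.16% of genes rose and 0.829% fell. At an unadjusted p under 0.05, 8 of these 9 genes were lower at 48 h than at 24 h with no filter (6.84% of all genes) and 5 of 9 without the variance trend (7.62%).

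**Figure D3:**
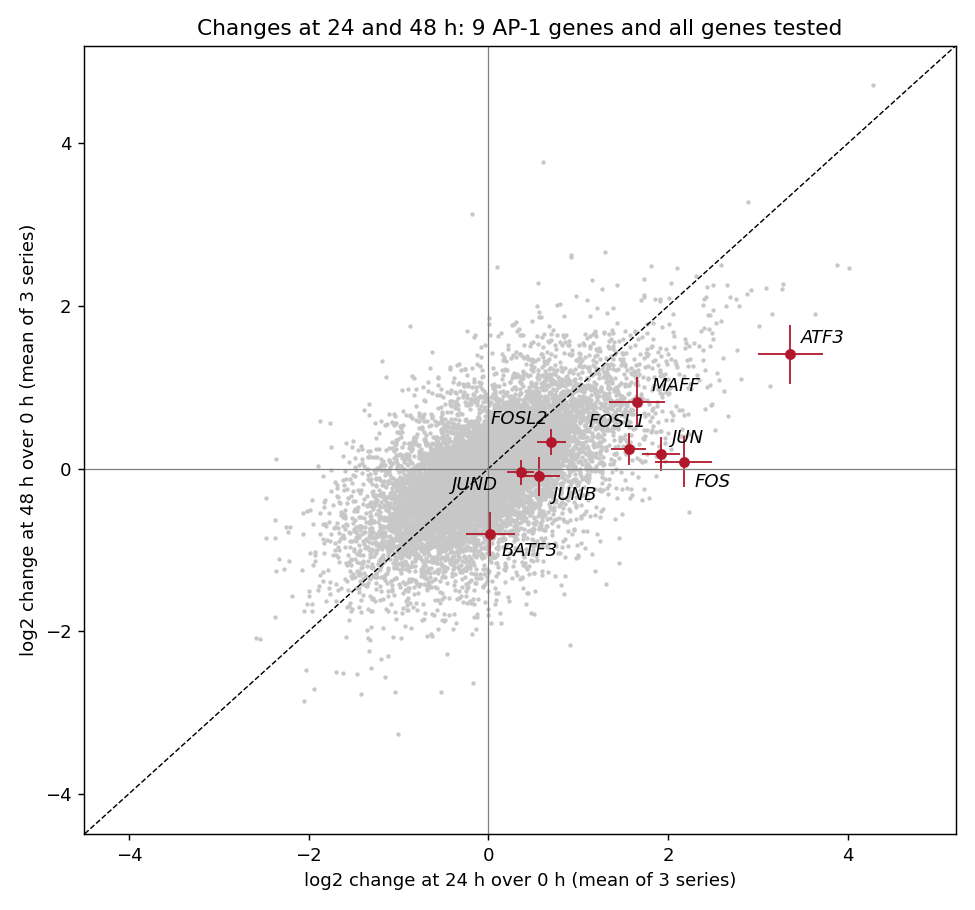
Log2 change at 48 h over 0 h against that at 24 h over 0 h, each as the mean of 3 series; red points with standard error bars are the 9 AP-1 genes tested, grey points are all 13804 genes, and the dashed line marks equal changes. All 9 lie below the line; FOS, JUN and FOSL1 lie near 0 on the vertical axis, and ATF3 is at 1.41.

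Whether a construct altered these changes was asked with a model that sets the change of each construct series against that of the untreated series, both contrasts sharing the untreated arrays. No AP-1 gene was called in either contrast by limma, where 0.00724% and 0.0362% of all genes were called, each of them lower. ATF3 stood at −2.04 ± 0.49 with full-length NRSF (adjusted p = 0.98) and −2.22 ± 0.49 with truncated NRSF (adjusted p = 0.12). JUN stood at −1.27 ± 0.30 (adjusted p = 0.98) and −1.07 ± 0.30 (adjusted p = 0.25), and MAFF at −0.10 ± 0.50 and −1.58 ± 0.50 (adjusted p = 0.37). At an unadjusted p under 0.05 there were 3 of 9 members in each contrast, beside 578 and 1055 of 13804 genes. Without the truncated 24 h array ATF3 was called with truncated NRSF (−2.67, adjusted p = 0.0071). That fit reads the truncated construct from the 48 h array alone. Both contrasts also take off the 0 h arrays, and the untreated one was the lowest for ATF3, at 33.59. Against untreated at the same hour, ATF3 with truncated NRSF stood at 1.84 at 0 h, 0.12 at 24 h and −0.87 at 48 h. With probe sets averaged, the ATF3 contrast with truncated NRSF was −1.02 (limma, adjusted p = 0.88). How far the 0 h array set these values was not tested. The model on all 9 arrays has 2 residual degrees of freedom, since it reads 1 effect from both later times. In simulated data it called 24% of 50 genes given a true change of 2 log2 in the truncated series. A gene that was not called may therefore still have changed.

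For ATF3, JUN and FOS the series lay further apart at 0 h than at 24 h. On the brightest probe sets at 0 h the highest series was 3.59-fold above the lowest for ATF3, 2.78-fold for FOS and 2.21-fold for JUN. The untreated array was the lowest each time. At 24 h these ratios were 1.21, 1.36 and 1.05, and at 48 h 1.83, 1.61 and 1.26. The dimmest JUN probe set read 99.12 (full-length), 119.4 (truncated) and 100.7 (untreated) at 0 h. Over all genes the median ratio was 1.45, 1.52 and 1.44 at the 3 times. JUNB and MAFF showed the other order, with ratios of 1.53 and 2.06 at 0 h and 2.38 and 3.15 at 24 h, the untreated array being the highest at 24 h. Against the untreated array of the same hour, 3 of 9 members in the full-length series differed by 2-fold or more at 0 h (14.9% of genes), 1 at 24 h (14.1%) and 0 at 48 h (15.2%). With truncated NRSF these were 1 (13.2%), 1 (18.2%) and 0 (14.4%). These differences rest on 1 array each and have no replicate check.

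**Figure D4:**
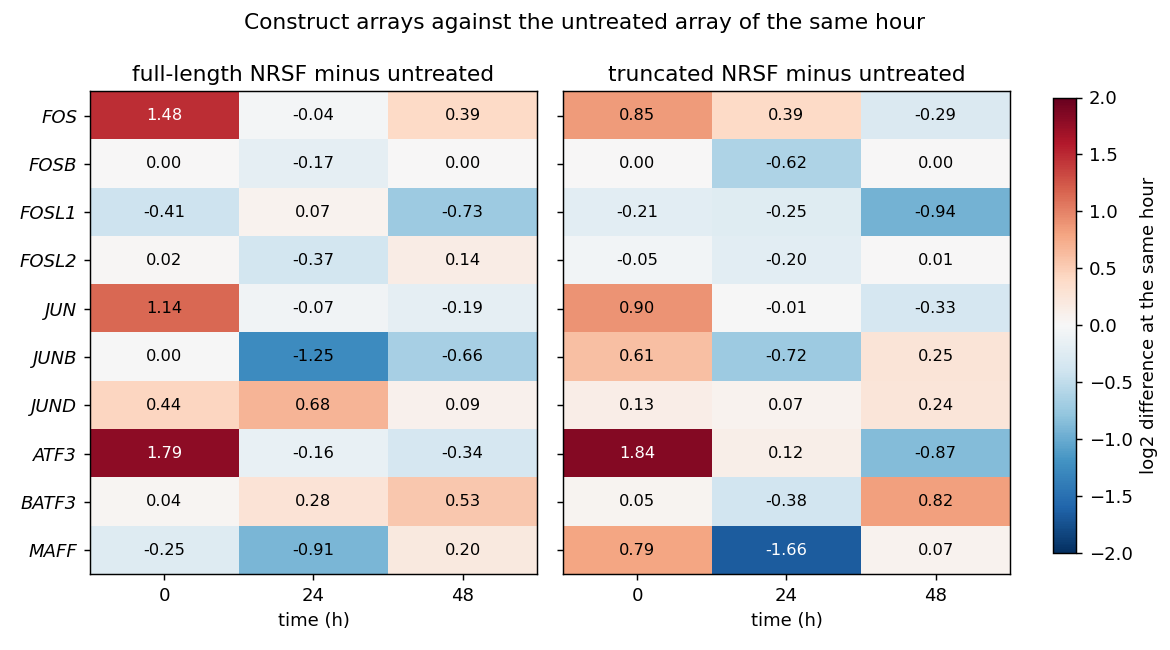
Log2 signal of each construct array minus the untreated array of the same hour, for the brightest probe set of each AP-1 gene (red higher, blue lower, values floored at a signal of 8.266). ATF3 differs by 1.79 and 1.84 at 0 h and by −0.16 and 0.12 at 24 h, and MAFF by −0.91 and −1.66 at 24 h.

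The genes around AP-1 were read as 4 lists with the same test. The lists were chosen with earlier results of these data known, so their shares beside all genes are a description. Of 21 measured AP-1 target genes, 12 rose at 24 h and 0 fell, with a median of 1.27 log2, and 10 were above 0 h at 48 h, which 4.5% of all genes were. Among them IL24, a cytokine of the IL10 family, stood at 4.29 and 4.72 at 24 and 48 h, the chemokine gene CXCL8 (uncertain probe set) at 3.88 and 2.51, the heme oxygenase gene HMOX1 at 2.88 and 3.28, and the cytokine gene IL11 at 2.50 and 2.26. By the same 3 calls 5 targets were lasting (HMOX1, IL11, IL24, MMP9 and VEGFA), 3 partly kept (CXCL8, HBEGF and PLAU) and 2 transient (LIF and PLAUR). By their brightest probe sets 0 of 9 AP-1 genes were lasting. The difference in these shares was not tested. LIF, a cytokine, was at 2.16 and then fell by 1.76, and PLAUR, the urokinase receptor gene, was at 1.27 and then fell by 1.18.

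The next list holds genes that act on AP-1 or its messages, most of them as limits. ELAVL1 is counted in it but is not known as such a limit. Of 16, 6 rose at 24 h and 0 fell (median 0.59), and 4 fell from 24 to 48 h (1.78% of all genes did). ZFP36, whose product destabilizes messages with AU-rich elements, rose by 1.88 ± 0.21 and fell by 1.31 ± 0.21. The phosphatase genes DUSP1 and DUSP5, which switch off MAP kinases, rose by 2.75 ± 0.19 and 2.47 ± 0.17 and were at 2.09 and 1.02 at 48 h, so DUSP1 was lasting and DUSP5 partly kept. DUSP2 stood at 1.3 ± 0.65 (adjusted p = 0.20). At 48 h over 0 h 2 of the 16 were higher (4.5% of all genes) and 1 was lower (3.88%). The lower one was DUSP6, also a phosphatase gene, at −0.90 ± 0.25 (adjusted p = 0.032). Of 22 other bZIP genes 11 rose and 2 fell at 24 h (median 0.39). DDIT3, a stress-induced partner of C/EBP proteins, was at 1.95 and 1.10, CREB5 at 1.82 and 0.31, BACH1, a repressor that pairs with small MAF proteins, at 1.41 and 0.53, and CREM at 1.38 and 0.78. Of these, ATF4, CEBPB, CREM and NFIL3 were lasting. Of 28 upstream kinases and serum response factors 1 rose and 2 fell (median −0.12): the p38 kinase gene MAPK12 rose by 2.40 ± 0.55, MAP2K6, which encodes a kinase of p38, fell by 1.06 ± 0.27, and MRTFB, a cofactor of serum response factor, fell by 0.91 ± 0.16. MRTFA stood at −1.24 ± 0.47 (adjusted p = 0.088). These shares of 12 of 21, 6 of 16, 11 of 22 and 1 of 28 stand beside 8.04% of all genes. The falls at 24 h, in 0 of 21, 0 of 16, 2 of 22 and 2 of 28, stand beside 8.2%.

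**Figure D5:**
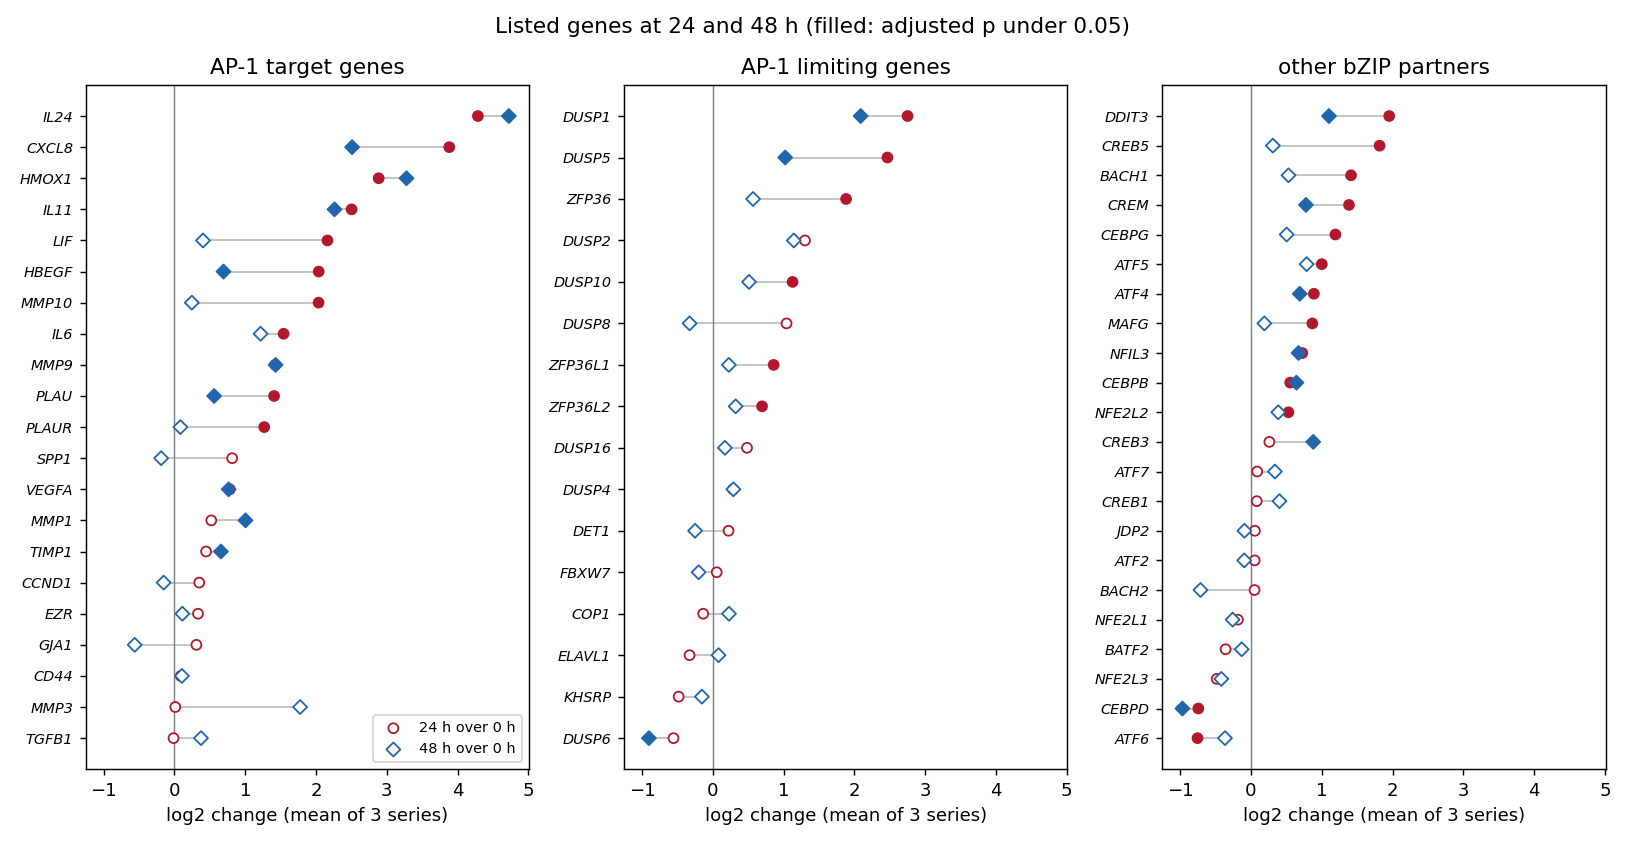
Log2 change at 24 h (circles) and 48 h (diamonds) over 0 h, as the mean of 3 series, for AP-1 target genes, AP-1 limiting genes and other bZIP partners; filled markers had an adjusted p under 0.05. IL24 and HMOX1 are as high at 48 h as at 24 h or higher, while LIF, PLAUR and ZFP36 are lower at 48 h.

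Among the tested genes that are not AP-1 members, those with the profile most like each member over the 9 arrays were named by Pearson's r of log2 signals, as a description, since all arrays share the time course. Nearest to FOS were ARAP2 (0.97), UGCG (0.96) and BHLHE40 (0.95), and nearest to JUN were RHOU (0.98), BHLHE40 (0.98) and KLF6 (0.97). GEM (0.98), CDKN1A (0.98) and TP53RK (0.98) were nearest to ATF3, and RBM12 (0.99), SPRY4 (0.99) and GPATCH2L (0.98) to FOSB. For FOSB 6 of the 9 arrays were set to the floor. Its r values therefore mainly reflect 24 h against the other times and not a measured profile. FOSL1 was most like MB21D2, PROSER2 and RNF149 (each 0.97), FOSL2 most like IFIT2 (0.99), TRIB1 (0.97) and FRMD6 (0.97), and MAFF most like PNRC2 (0.98), TAX1BP1 (0.97) and EIF3J (0.96). For the genes that did not rise, the nearest were THUMPD1 (0.93), SPATA2L (0.93) and COA5 (0.92) for JUNB, ZNF776 (0.97), INTS15 (0.94) and TRAPPC4 (0.94) for JUND, and SEC22A (0.95), TRAK1 (0.94) and TTLL4 (0.93) for BATF3. Between members, FOS and JUN had an r of 0.98, JUN and ATF3 0.94, and FOS and ATF3 0.91, whereas BATF3 had 0.03 with ATF3 and JUNB 0.06 with JUND.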

How the data were processed

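The authors deposited a linear signal intensity for each probe set on each array. GCOS is the tool that the submitters' processing notes name, without version or settings. With the lowest and highest 2% left out, every array's mean was 150.02, so this scaling was kept. From these deposited intensities, values under the 25th percentile (8.266) were raised to it, log2 values were taken, and probe sets of 1 gene were named by Entrez ID. The brightest probe set stood for a gene, and genes with a mean log2 above 4.2, the 40th percentile, were kept. limma 3.58.1 in R 4.3.3 with data.table (version 1.17.8) gave lmFit and eBayes fits with a mean-variance trend, two-sided: series plus time, with 4 residual degrees of freedom, and the same plus construct exposure. All genes and, separately, all probe sets were fitted. The code was tested on simulated data. Alternatives changed the floor, scaling, probe set rule, filter, variance model and arrays.

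The 10 genes, the lists and the rules were chosen with earlier results of these data known. The rule for named genes takes all members, the 3 genes with the most similar profile, and, per list, the 4 genes that changed most at 24 h. LIF, PLAUR, PTPRC, DUSP6 and genes named by class were picked with values in view. Precision is limited by the number of arrays.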

Additional observations from a re-analysis of the deposited data

How the results depend on the processing

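Over 13 alternatives, 1 of them chosen after seeing the data (without the untreated 0 h array), FOS, FOSL1, JUN and ATF3 kept their calls at 24 h in each, and the number of AP-1 genes up at 24 h was 4 to 6 of the same 9, with 4 without the variance trend. FOSB is left out of these counts. AP-1 genes up at 48 h over 0 h numbered 0 instead of 1 with no filter, with probe sets averaged, without the variance trend and without the untreated 0 h array, and 2 with every probe set fitted and without the truncated 24 h array. Leaving out 1 series gave 0 to 2. AP-1 genes down from 24 to 48 h numbered 0 instead of 4 with no filter and without the variance trend, and 2 to 5 when 1 series was left out. With truncated NRSF 1 gene instead of 0 was called against untreated without the truncated 24 h array. No direction of a called change reversed. Over all genes, calls up at 24 h were 1110, but 331 without the variance trend, 648 with probe sets averaged, 691 with no filter, 1753 with every probe set fitted, 732 without the truncated 24 h array and 452 to 768 without 1 series. Calls up at 48 h (621) were 13, 279, 230, 863 and 697, and 132 to 364, under the same settings. Calls down from 24 to 48 h (246) were 0, 97, 0, 387 and 121, and 49 to 131, and 1052 and 1353 genes were down at an unadjusted p under 0.05 in limma for the settings with 0. Calls against untreated (1 with full-length NRSF, 5 with truncated NRSF) were 0 to 8 and 0 to 36, the highest without the truncated 24 h array. With probe sets averaged ATF3 stood at 1.97 at 24 h, 0.78 at 48 h (adjusted p = 0.27) and −1.19 from 24 to 48 h (adjusted p = 0.15). The MAFF call at 24 h ended with probe sets averaged (adjusted p = 0.051), with no filter (0.091) and without the variance trend (0.10), and that of FOSL2 without the variance trend (0.070). The cause of these changes was not tested. Series was a block in every time fit, so each change was taken within series, and the labels carry no replicate numbers.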
